A study of Mus musculus with 9 samples.

Results

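Tumours grown from the mouse melanoma line B16-F10 were compared with the same line kept in culture. B16-F10 is a transplantable, pigment-forming melanoma line, and the variant used here, B16-F10 HDC-M, has an unmodified capacity to make histamine. HDC (L-histidine decarboxylase) is the enzyme that makes histamine, and the other variants of the series, HDC-A and HDC-S, make less and more of it. RNA of 6 HDC-M tumours was combined into 3 pools of 2 tumours each, labelled with Cy5, and hybridised to 3 two-colour Agilent mouse arrays, which are 3 of the 9 arrays of the series. The Cy3 channel of each array held RNA of cultured HDC-M cells, a single uniform reference. The host strain, age and sex, the site of the tumours, their time of growth and the culture conditions are not given in the sources used here. Whether HDC-M is 1 clone is not given either.

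The ratio of each array is tumour over culture, and it was tested against 0 on the log2 scale, so that 1 log2 unit is 2-fold. The culture is 1 sample, so the test holds the spread between tumour pools and leaves out the spread between cultures. The dyes were never swapped, and a dye effect on a probe cannot be told apart from a difference between tumour and culture. For this reason the text stresses genes past 4-fold, a mean log2 ratio above 2 or below -2 with an adjusted p under 0.05. A tumour holds vessels, connective tissue, blood and immune cells beside the melanoma cells, whereas the culture holds the line alone. In such mixed samples, more cells of a type and more RNA per cell of that type cannot be told apart.

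After a filter on dim probes, 20894 probes were tested, of which 14771 had a gene symbol and stood for 10950 genes. The adjusted p was under 0.05 for 13485 probes (64.5%), with 7625 (36.5%) brighter in tumour and 5860 (28%) brighter in culture. Most of these differences were small, since 12000 of the 13485 were under 2-fold. With median centring in place of loess, 97.7% of the passing probes were brighter in tumour against 56.5% here, and the median over all genes moved from 0.07 to 0.56 on the log2 scale. Small ratios below 0, such as -0.76 at Rab38, turned above 0 under that setting, and none past 4-fold did. Past 4-fold were 212 probes (1.01%) brighter in tumour and 48 (0.23%) brighter in culture. In genes, 7392 (67.5%) passed and 199 (1.82%) were past 4-fold. Of them, 4201 (38.4%) passed as brighter in tumour and 3191 (29.1%) as brighter in culture. Past 4-fold were 161 genes (1.47%) in tumour and 38 (0.347%) in culture, and these shares are the background for the lists below. The last genes inside 4-fold were F13a1, at a log2 ratio of 2.001, and Ctsl, at -2.052. The first outside were Dmkn, at 1.997, and Gstm1, at -1.988.

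The ratios of the pools correlated across probes and differed in spread. Over all probes tested, Pearson's r across probes was 0.957 between pools 1 and 2, 0.904 between pools 1 and 3 and 0.913 between pools 2 and 3, where probes are not independent replicates. The SD of the log2 ratios was 0.65 in pool 1, 0.629 in pool 2 and 0.512 in pool 3. Of the 153 genes past 4-fold in tumour with all 3 pools measured, pool 3 was the lowest at 121. Of 34 such genes past 4-fold in culture, pool 3 lay nearest to 0 at 21. Per the file headers pools 1 and 2 were scanned on the same day and pool 3 on another, so that the pool and the scan day cannot be told apart here. Above background were 52.95% to 62.77% of probe spots in Cy5 and 40.51% to 47.75% in Cy3, with pool 3 highest in both.

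The genes highest in tumour were those of macrophages, interferon-induced GTPases, antigen presentation, interstitial collagen, skin, blood and skeletal muscle. Ctss, a lysosomal protease of antigen-presenting cells, had log2 ratios of 6.55, 6.67 and 4.38 in pools 1, 2 and 3. Its mean was 5.87 ± 0.48 (SE, n = 3 pools; adjusted p = 0.000764). Its Cy3 signal was above background on no array, so the mean over the pools is given as a bound, at least 58.4-fold higher in tumour. Without replicate 3 its mean was 6.61. A bound of this kind sets the Cy5 mean against the higher of the probe's own Cy3 signal and the lowest Cy3 signal above background. It refers to the mean of the pools, and a single pool can lie below it, as pool 3 did at Ctss. Where the probe's own Cy3 signal is the higher, as at Ctss, the bound equals the fold of the mean. The 4-fold rule uses the mean ratio and not the bound, so a gene past 4-fold can have a bound under 4. Examples are Lum, with a bound of 3.87, and F13a1, with 3.99. Of the 161 genes past 4-fold in tumour, 40 had a Cy3 signal above background on no array and 86 had one on all 3. Only 17 genes were past 16-fold in tumour, and 1, Gsta3, was past 16-fold in culture. Of the 161 genes in tumour, 72 belonged to the 32 cell type and pathway lists, and of the 38 in culture, 10 did, where the Nrf2 list, drawn up later, is not counted. Each gene was read from its brightest probe, and further probes of a gene could give another ratio.

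**Figure D1:**
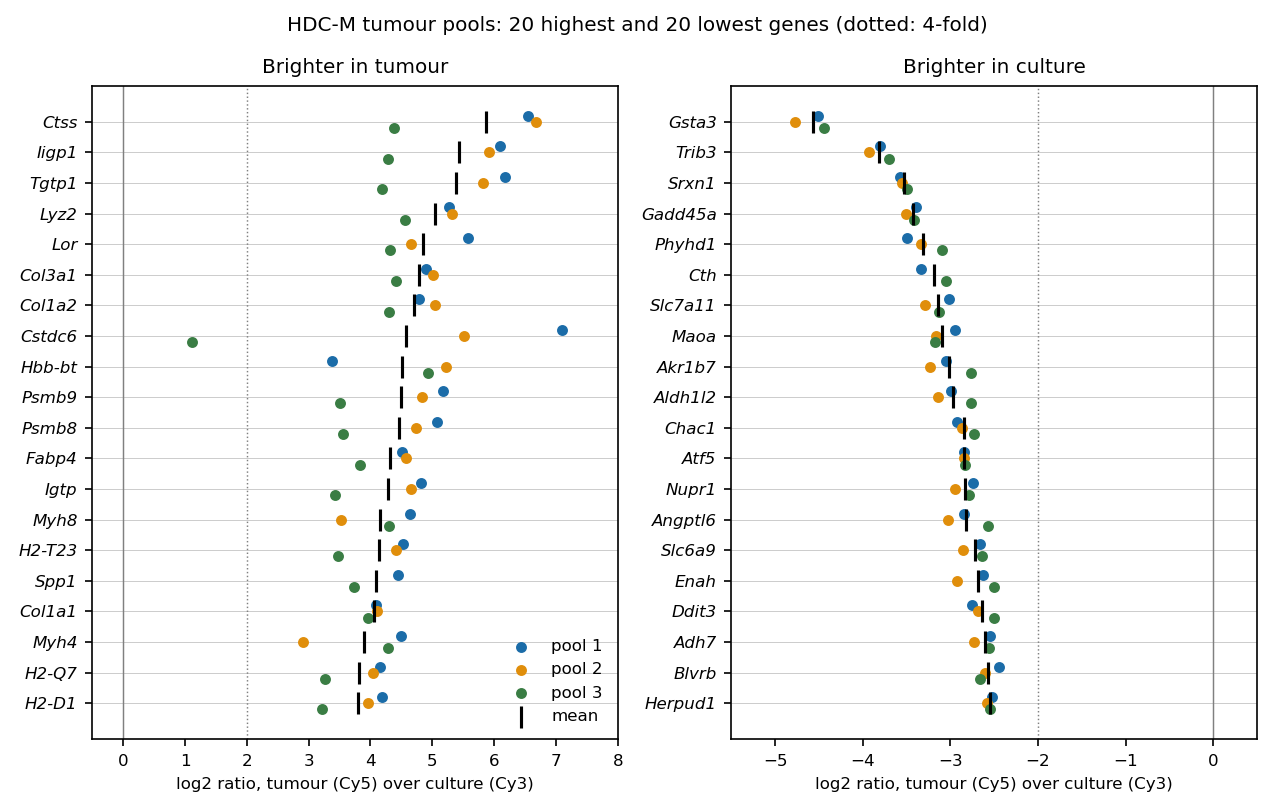
Log2 ratio of tumour (Cy5) over culture (Cy3) on the horizontal axis for the 20 highest and the 20 lowest genes that passed with the same sign in all measured pools. Coloured points are the 3 pools, black bars their mean and dotted lines 4-fold. The pools lie close together on the culture side, and in tumour pool 3 is often the lowest, most of all at Cstdc6 (1.12 against 7.1 and 5.51).

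Macrophage genes were higher in tumour throughout the list. Macrophages are phagocytes that enter most solid tumours, and the list holds their receptors, complement C1q chains and lysosomal proteins. All 21 of 21 measured members passed as brighter in tumour, 9 of them past 4-fold, with a median log2 ratio of 1.52 against 0.07 over all genes tested. Of the 21, 11 were above background in Cy3 on no array and 6 on all 3. Members dim in Cy3 were kept through Cy5 alone, which favours a call in tumour, so their direction was largely set by the filter. The same holds for such members of the other lists. Lyz2, the lysozyme of myeloid cells, had log2 ratios of 5.27, 5.31 and 4.55, a mean of 5.04 ± 0.16 (SE, n = 3 pools; adjusted p = 0.000159). A second Lyz2 probe, dimmer, gave a log2 ratio of 0.66. C1qc, a chain of the first complement component, stood at 3.45, 3.4 and 2.29. Adgre1, the gene of the F4/80 antigen, had ratios of 3.21, 3.32 and 1.81 and was at least 6.87-fold higher in tumour.
In these genes pools 1 and 2 lay together and pool 3 below them, and none of the 21 members was highest in pool 3. Aif1, Fcgr1, Fcer1g, Tyrobp and Ms4a7, which are myeloid signalling and surface genes, had mean log2 ratios from 2.05 to 2.67. The receptor for the growth factor of macrophages, Csf1r, was higher in tumour by 0.99 on the log2 scale (adjusted p = 0.0067), and a second probe gave 0.07. The list's median was 1.84, 1.91 and 0.94 in the 3 pools, and 1.4 to 2.4 in the 6 pools of the other variants, whose ratios share the same culture RNA. The HDC-A and HDC-S pools scanned on the day of pool 3 had medians of 2.01 and 1.62. With the scanner software's own ratios the list's median was 3.58.

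Other blood-borne cell types gave smaller or fewer differences. Of 14 measured T and NK cell genes, 7 passed as brighter in tumour, none past 4-fold, with a median of 0.17. The highest was Cd8b1, a chain of the CD8 co-receptor, at 0.84, followed by Ifng, the gene of interferon gamma, at 0.68. The call of Cd8b1 was lost without replicate 1 (0.67, adjusted p = 0.0847) or 2 (0.69, adjusted p = 0.0948). That of Ifng was lost likewise without replicate 1 (0.61, adjusted p = 0.0881) or 2 (0.49, adjusted p = 0.0842). Of the 14 genes, 7 were above background in Cy3 on no array. Only 3 of 9 B and plasma cell genes on the array passed the filter, and Ms4a1 and Pax5, which mark B cells, did not. Of the 3, 2 passed in tumour, Cd79b at 0.3 and Jchain at 0.2, and 1 in culture, Cd79a at -0.2.
Of 11 granulocyte genes on the array, S100a8 and S100a9, calcium-binding proteins of neutrophils that activated keratinocytes also make, were the 2 that passed the filter. S100a9 had log2 ratios of 5.1, 3.57 and 0.2 (mean 2.95 ± 0.94, SE, n = 3 pools; adjusted p = 0.0447), so pools 1 and 2 were far above pool 3. That call was lost without replicate 1 (1.88, adjusted p = 0.127) or without replicate 2 (2.65, adjusted p = 0.147). S100a8 stood at 3.14, 2 and 0.05 and did not pass (mean 1.73, adjusted p = 0.053), but passed without replicate 3 (2.57, adjusted p = 0.00424). The granule genes Mpo, Elane, Ltf and Camp did not pass the filter. Mast cell genes were measured at 3 of 9, and all 3 passed in tumour, none past 4-fold. They were Cma1 at 0.55 (adjusted p = 0.0482), Gata2 at 0.46 (adjusted p = 0.0108) and Mcpt4 at 0.35 (adjusted p = 0.0332). Cy3 was above background on no array at 2 of the 3. The mast cell proteases Cpa3 and Tpsb2 did not pass the filter.

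Genes of antigen presentation by MHC class II, which displays peptides to CD4 T cells, were among the higher ones. Of 13 measured genes in the dendritic cell and MHC class II list, 11 passed in tumour, 4 past 4-fold, with a median of 0.99. Cy3 was above background on no array at 5 of the 13. H2-Ab1, a class II beta chain, had log2 ratios of 3.81, 4.1 and 2.78, and the means of its 4 probes ranged from 1.14 to 3.56. Cd74, the invariant chain, had 3.01, 3.39 and 1.75. Both passed as above background in Cy3 on all 3 arrays, but by a small margin. Relative to the negative controls, the Cy3 signal was 1.58-fold at H2-Ab1 and 1.29-fold at Cd74. The culture signal of both genes was thus close to background. H2-DMb1, which helps load peptide on class II molecules, had 2.82, 2.84 and 1.72.

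MHC class I genes were higher in tumour at every measured member. Class I molecules display peptides of the cell's own proteins, cut by the proteasome, carried by the TAP transporter and loaded with the help of tapasin. All 10 measured members passed, 6 past 4-fold, with a median of 2.25. Psmb9, an inducible proteasome subunit, had log2 ratios of 5.17, 4.84 and 3.5 (mean 4.5 ± 0.34, SE, n = 3 pools; adjusted p = 0.000593). Psmb8, its partner subunit, had 5.07, 4.74 and 3.56, and the third inducible subunit, Psmb10, had 2.71, 2.51 and 1.91.
These ratios are between measured signals, since 8 of the 10 were above background in Cy3 on all 3 arrays. Among the heavy chains, H2-D1 had log2 ratios of 4.18, 3.96 and 3.21, and H2-T23 had 4.52, 4.41 and 3.47. H2-Q7, a heavy chain outside the list, had 4.16, 4.04 and 3.27. Class I heavy chains are near-identical in sequence, and which of them each probe read is uncertain. B2m, the shared light chain, had 1.95, 1.9 and 1.24. Tapbp, the gene of tapasin, had 2.41, 2.41 and 1.52, and 0.21 at a second probe. The transporter genes Tap1 and Tap2 had mean log2 ratios of 1.48 and 1.41. Pool 3 was the lowest at each of these genes, and the list's medians were 2.56, 2.46 and 1.72.

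Interferon-induced genes were higher in tumour at 20 of 30 measured members, to very different degrees. Interferon gamma raises IRF1, GTPases and chemokines, while type I interferons act through a transcription factor complex that binds a GAAA repeat, the interferon-stimulated response element (ISRE). Of the 20 that passed, 9 were past 4-fold, and the list's median was 0.76. The members past 4-fold were GTPases, chemokines, a transcription factor and a nucleic acid sensor. Iigp1, a GTPase of cell-autonomous immunity, had log2 ratios of 6.09, 5.92 and 4.28, a mean of 5.43 ± 0.38 (SE, n = 3 pools; adjusted p = 0.000505), at least 42.1-fold. Igtp, of the same family, had 4.81, 4.66 and 3.42, and Irf1, the transcription factor, had 3.59, 3.64 and 2.89, while a second Irf1 probe gave 0.41.
Tgtp1, a GTPase of this family outside the list, had 6.18, 5.82 and 4.18, with Cy3 above background on 2 of 3 arrays and a mean of 5.39, or 6 without replicate 3. A second Tgtp1 probe gave 0.74, and the gene has a near-identical neighbour. The guanylate-binding proteins Gbp2 and Gbp3 had means of 2.4 and 2.1, Irgm1 2.37 and the sensor Zbp1 2.43. The T cell-attracting chemokines Cxcl10 and Cxcl9 had means of 2.57 and 2.32. Genes known best from the type I response were found on both sides of the threshold. Oasl2, Oas1a and Oas2, of the oligoadenylate synthetase family, were higher in tumour with means of 1.99 (adjusted p = 0.00979), 0.9 (adjusted p = 0.0028) and 0.73 (adjusted p = 0.00784). Ifit3, an RNA-binding family member of Ifit1, was higher by 1.01 (adjusted p = 0.0103). Isg15, a ubiquitin-like protein, was at -0.31 (adjusted p = 0.21; lower in tumour without replicate 2, at -0.59, adjusted p = 0.0137). Ifit1, which binds foreign RNA, was at 0.08 (adjusted p = 0.72). Irf7, a transcription factor of the type I response, was at 0.23 (adjusted p = 0.12) and passed without replicate 3 (0.37, adjusted p = 0.0211). These signals were mostly measured in culture too, since 25 of the 30 members were above background in Cy3 on all 3 arrays. A member's lack of a call does not show that they did not differ.

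The letters GAAA, any pair of bases and GAAA again, searched on both strands in the 250 bases before the start site, were found at 12 of the 23 interferon members with a promoter in the RefSeq table (52.2%) and at 3.37% of the genes tested. Of the 7 members past 4-fold with a promoter, 5 held them. In the MHC class I list, searched in the same way, 2 of 9 members with a promoter held them (22.2%), and 1 of the 6 past 4-fold did. The same letters stand before genes that passed and genes that did not, so stretches of each are shown. The sequences are from RefSeq (GRCm38.p6), 5′ to 3′ on the strand of the gene, with the matches in capitals, read as TTTC in place of GAAA where the match lies on the other strand and running together where matches overlap. Igtp (chr11:58199492-58199555, plus strand), Irgm1 (chr11:48871421-48871480, minus strand) and Gbp3 (chr3:142559969-142560043, plus strand) were past 4-fold. Isg15 (chr4:156200845-156200926, minus strand) and Ifit1 (chr19:34640755-34640843, plus strand) did not pass.
Igtp: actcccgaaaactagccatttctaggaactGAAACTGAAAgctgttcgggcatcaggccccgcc
Irgm1: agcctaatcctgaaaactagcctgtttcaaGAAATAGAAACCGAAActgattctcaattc
Gbp3: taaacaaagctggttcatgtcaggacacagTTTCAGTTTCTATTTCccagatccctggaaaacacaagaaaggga
Isg15: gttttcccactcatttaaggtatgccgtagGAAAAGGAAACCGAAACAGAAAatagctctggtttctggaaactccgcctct
Ifit1: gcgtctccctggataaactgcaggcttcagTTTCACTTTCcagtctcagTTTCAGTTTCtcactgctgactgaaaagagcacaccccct
Isg15, with a log2 ratio of -0.31, held 3 matches, and Igtp, with 4.29, held 1, so the number of matches did not order these genes. A match is a description of the letters and not of binding.

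Complement and chemokine genes were higher in tumour as well. Of 8 measured complement genes, 7 passed, 2 past 4-fold, with a median of 1.06. Cy3 was above background on no array at 5 of the 8. C3, the central component, had log2 ratios of 2.78, 3.62 and 2.78, and Cfb, the protease of the alternative pathway, had 2.25, 2.6 and 1.36. Of 20 measured chemokines and receptors, 18 passed in tumour and 1, Ccl5 at -0.46, in culture, a call lost without replicate 1 (-0.4, adjusted p = 0.112) or 3 (-0.33, adjusted p = 0.0916). Cy3 was above background on no array at 14 of the 20. Ccl8, which attracts myeloid cells, had log2 ratios of 3.83, 3.97 and 2.76. Ccl2, the chemokine of monocytes, had 3.46 and 3.53 in the 2 pools with a usable spot. Ccl6 had 3.05 and 3.36, also in 2 pools, and was at least 9-fold higher. Spp1, the secreted phosphoprotein osteopontin of macrophages and tumour cells, which is outside the lists, had 4.45 and 3.73 in pools 1 and 3, the 2 with a usable spot.

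**Figure D2:**
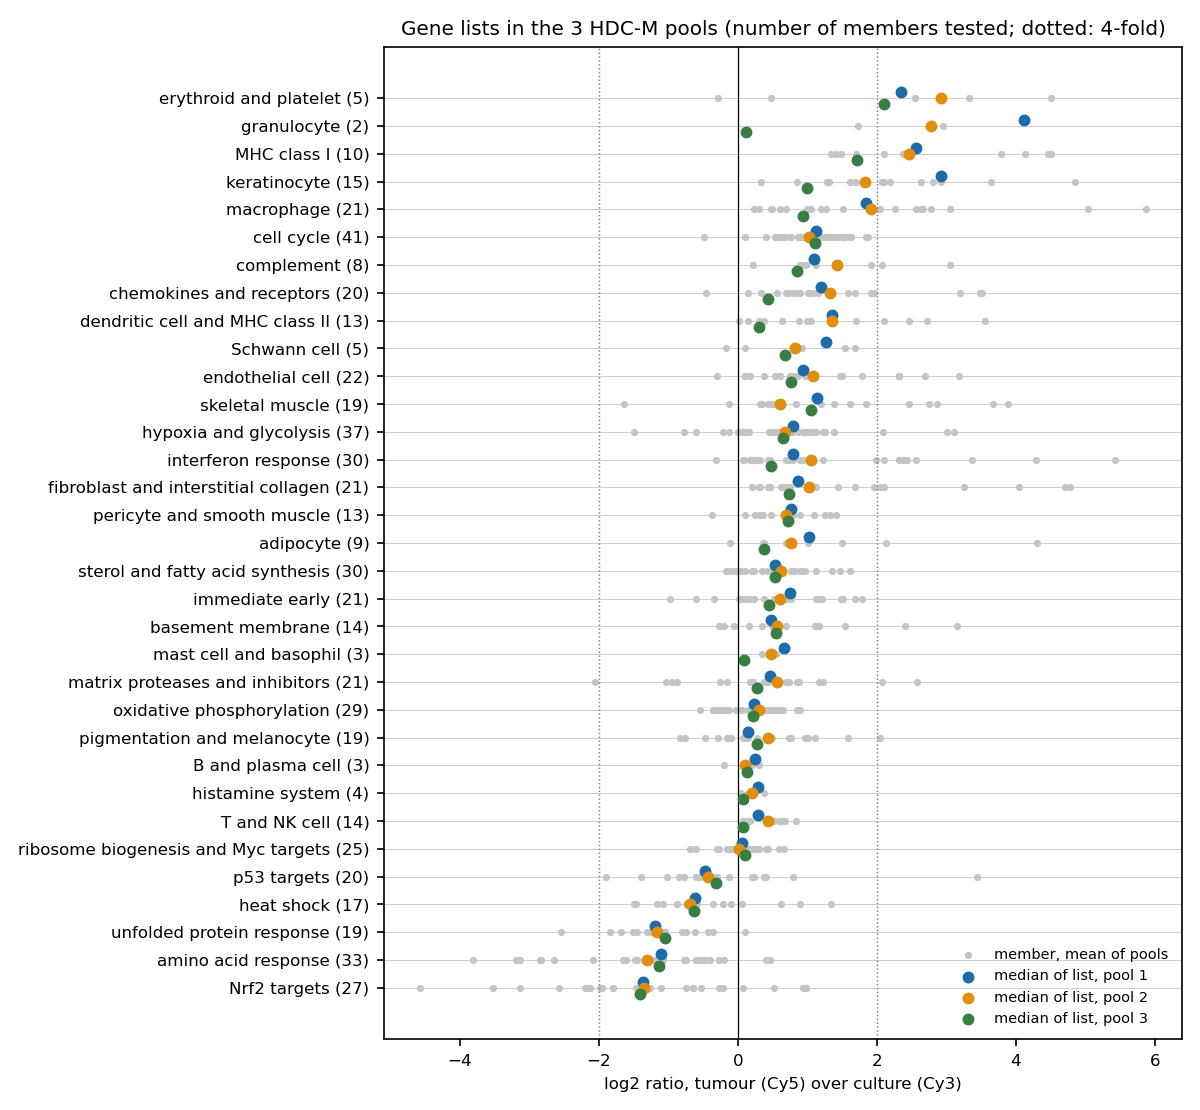
Log2 ratio of tumour over culture on the horizontal axis for each gene list, ordered by median, with the number of members tested in brackets. Grey points are members (mean of the pools), coloured points the list's median in each pool and dotted lines 4-fold. The amino acid response, unfolded protein response and Nrf2 lists lie left of 0 in all 3 pools, and pool 3 is lowest in the macrophage (0.94), keratinocyte (1) and MHC class I (1.72) lists.

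Connective tissue genes were higher at every measured member of their list. Fibrillar collagens are laid down mainly by fibroblasts. All 21 measured genes passed as brighter in tumour, 6 past 4-fold, with a median of 0.75. Of the 21, 11 were above background in Cy3 on no array and 5 on all 3, so the direction of many was largely set by the filter. Col1a1 had log2 ratios of 4.09, 4.1 and 3.96, Col1a2 had 4.78, 5.04 and 4.3, and Col3a1 had 4.9, 5.01 and 4.42. The pools were close here, and Col1a1 had an SE of 0.05. A second Col1a1 probe gave a smaller ratio, 1.23. Dcn, the proteoglycan decorin, had 4.03, 3.3 and 2.44 and was at least 9.54-fold higher. Lum, the related lumican, had 2.58, 2.25 and 1.31, and its bound was lower than 4-fold, at least 3.87-fold. Pcolce, the enhancer of procollagen processing, had 2.14, 2.23 and 1.97. The fibroblast receptor Pdgfra was higher by 0.46 (adjusted p = 0.0051).
Of 14 measured basement membrane genes, 9 passed in tumour and 3, Lama4, Sparc and Col4a5, in culture. Col18a1, the source of endostatin, had log2 ratios of 3.5, 3.4 and 2.58, and Col4a1, a chain of network-forming collagen IV, had 2.46, 2.6 and 2.14. Second probes gave smaller ratios, 1.28 at Col18a1 and 0.79 at Col4a1. Of 21 measured matrix proteases and inhibitors, 14 passed in tumour and 5 in culture, and 7 of the 21 had Cy3 above background on no array. Mmp3, stromelysin, had 3.37, 2.79 and 1.59 and was at least 5.99-fold higher, and Timp1, a tissue inhibitor of metalloproteases, had 2.17, 2.34 and 1.75. Ctsl, a lysosomal cathepsin, was lower in tumour, with -1.82 and -2.29 in the 2 pools with a usable spot. Ctsd, another lysosomal protease, was lower by 1.03 on the log2 scale, at -1.03 (adjusted p = 0.00087).

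Most vessel genes were higher in tumour. Of 22 measured endothelial genes, 18 passed in tumour and 1, Nos3 at -0.3, in culture, with 5 past 4-fold and a median of 0.91. Esm1, a proteoglycan of sprouting endothelium, had log2 ratios of 3.01, 3.5 and 3.06 (mean 3.19 ± 0.11, SE, n = 3 pools; adjusted p = 0.000164), at least 9.12-fold. Mmrn2, an endothelial matrix protein, had 2.96, 2.89 and 2.25 and was at least 6.5-fold higher. Emcn, Robo4 and the VEGF receptor Flt1 each had a mean of 2.32, that of Flt1 over 2 pools. A second Flt1 probe gave 1.13.
Cy3 was above background on no array at 13 of the 22 genes. Kdr, the main VEGF receptor, had 1.97, 2.03 and 1.34, and Pecam1 was at 0.18 and did not pass (adjusted p = 0.11), though it did without replicate 3 (0.26, adjusted p = 0.0469). Among 13 measured pericyte and smooth muscle genes, 11 passed in tumour, none past 4-fold, with a median of 0.75. At 3 of the 13, Cy3 was above background on no array. Pdgfrb, the receptor that recruits pericytes, had 1.28, 1.32 and 1.15, and Rgs5, a pericyte regulator, had 1.71, 1.33 and 1.18.

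Of the 11 red blood cell and platelet genes on the array, 5 passed the filter. Of these, 4 were higher in tumour, 3 of them past 4-fold, and 1, Klf1, an erythroid transcription factor, was brighter in culture at -0.29 (adjusted p = 0.0104). Its call was lost without replicate 1 (-0.24, adjusted p = 0.0607) or 2 (-0.29, adjusted p = 0.053). Hbb-bt, a beta globin, had log2 ratios of 3.38, 5.22 and 4.93, and Hba-a1, an alpha globin, had 2.35, 3.95 and 3.7, so that pool 1 was the lowest for both. The globin genes have near-identical copies, and 4 probes named Hbb-bt ranged from 1.7 to 4.51. Pf4, a platelet chemokine, had 2.63, 2.93 and 2.1 and was at least 5.87-fold higher. Alas2, the erythroid enzyme of haem synthesis, was at 0.48 (adjusted p = 0.031), a call lost without replicate 2 (0.31, adjusted p = 0.0912) or 3 (0.47, adjusted p = 0.0889).

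Skeletal muscle genes were higher in all 3 pools, lowest in pool 2 for most of the leading members. Of 19 measured members, 17 passed in tumour and 1 in culture, with 5 past 4-fold and a median of 0.84. Cy3 was above background on no array at 7 of the 19. Myh4, a fast myosin heavy chain, had log2 ratios of 4.49, 2.91 and 4.29, and Tnnc2, fast troponin C, had 4.07, 3.22 and 3.72. Myh8, the perinatal myosin outside the list, had 4.64, 3.53 and 4.3, though myosin heavy chains are similar in sequence. Tnni2, Myl1 and Acta1, further parts of the contractile apparatus, had means of 2.75, 2.86 and 2.46. Cox6a2, a cytochrome oxidase subunit of muscle and heart, went the other way at -1.45, -2.08 and -1.38. The list's median in the other 6 pools ran from 0.4 to 2.42.

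Keratinocyte genes were higher in tumour and spread widely between the pools. Keratinocytes are the epithelial cells of the epidermis, and the list holds their keratins, desmosome and cornified envelope genes. Of 15 measured members, 14 passed, 8 past 4-fold, with a median of 2.08 and medians of 2.92, 1.83 and 1 in the pools. Above background in Cy3 were 5 of the 15 on all 3 arrays, and 4 on no array. Lor, loricrin of the cornified envelope, had log2 ratios of 5.58, 4.65 and 4.32, and Krt10, a keratin of differentiating epidermis, had 4.15, 3.5 and 3.27. Krt5, a basal keratin, had 3.2, 2.82 and 2.41. Pool 1 was highest at 14 of the 15 members. Krt17 had 3.89, 3.34 and 1.58, Lgals7 had 3.87, 3.02 and 1, and Krt6a, which did not pass (adjusted p = 0.0571), had 3.02, 1.76 and 0.05 and passed without replicate 3 (2.39, adjusted p = 0.00638). The call of Lgals7 was lost without replicate 2 (2.43, adjusted p = 0.0572). Without replicate 3 the means of Lgals7 and Krt17 were 3.45 and 3.61, against 2.63 and 2.93 over all pools. In the other 6 pools the list's median ran from 0.13 to 2.08, with 0.69 and 1.12 in those scanned on the day of pool 3. The median SD of a gene between pools was 0.71 in this list, 0.55 in the macrophage list, 0.08 in the amino acid response list and 0.09 over all genes tested.
The genes with the largest SD among those past 4-fold, picked after their values were seen, included other genes known from skin. Krt16, a keratin of activated epidermis, had 5.39, 4.15 and 0.53, and Klk7, a protease of the cornified layer, had 4.51, 2.45 and 0.63. The call of Krt16 was lost without replicate 1 (2.34, adjusted p = 0.0932) or 2 (2.96, adjusted p = 0.116), and that of Klk7 without replicate 1 (1.54, adjusted p = 0.0503) or 2 (2.57, adjusted p = 0.0977). Cstdc6, a stefin-type cystatin, had 7.1, 5.51 and 1.12 (mean 4.58 ± 1.17, SE, n = 3 pools; adjusted p = 0.0233). Its call was lost without replicate 1 (3.32, adjusted p = 0.0652) or without replicate 2 (4.11, adjusted p = 0.0903). The genes of this cluster are near-identical, and which of them the probe read is uncertain. Perp, a p53 target and desmosome gene, had 4.54, 3.48 and 2.31, with the same order of pools. Fat cell genes were measured at 9 of 16, and 8 of the 9 passed in tumour, 2 past 4-fold. At 3 of the 9, Cy3 was above background on no array. Cfd, adipsin, had 2.32, 2.48 and 1.59. Fabp4, a fatty acid carrier of adipocytes, macrophages and endothelium, had 4.51, 4.58 and 3.83. Other Fabp4 probes ranged from 0.6 to 4.75, and the adipocyte-defining Adipoq, Plin1 and Lep did not pass the filter.

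**Figure D3:**
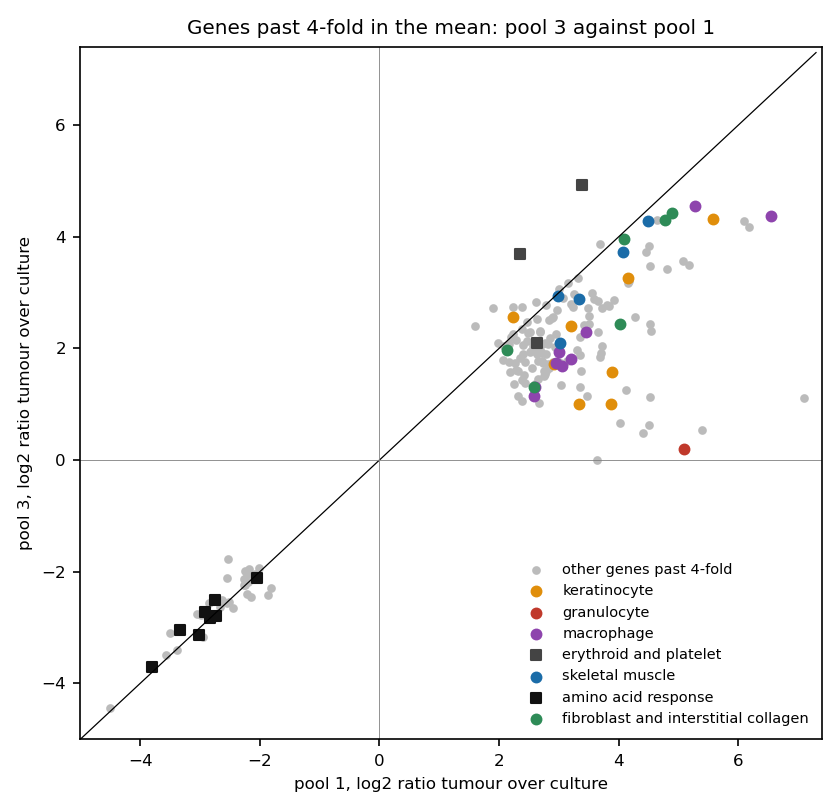
Log2 ratio of tumour over culture in pool 1 (horizontal) and pool 3 (vertical) for the genes past 4-fold in the mean, coloured by list, with the line of equal values. Genes brighter in culture lie along the line. Keratinocyte and macrophage genes lie below it, apart from Krt15, and the 2 globins above it, as with S100a9 at 5.1 and 0.2 and Hbb-bt at 3.38 and 4.93.

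Genes of the pigment lineage were measured in tumour and culture alike, which checks that both hold melanoma cells. All 19 of the 19 genes on the array passed the filter, and 15 were above background in Cy3 on all 3 arrays. In tumour 10 passed and in culture 4, with a median of 0.28. Among the enzymes of melanin synthesis, tyrosinase and its relative did not pass, with Tyr at 0.15 (adjusted p = 0.11) and Tyrp1 at -0.16 (adjusted p = 0.14). Dct, another of these enzymes, was at -0.1 (adjusted p = 0.265). Its spots were saturated in both dyes on the 2 usable arrays, which limits the ratio, and a second Dct probe gave 1.41. Mitf, the master transcription factor of melanocytes, had log2 ratios of 1.99, 2.03 and 2.1 (mean 2.04 ± 0.05, SE, n = 3 pools; adjusted p = 0.00013). Mc1r, the melanocortin receptor, had 1.71, 1.71 and 1.36.
A second Mitf probe, dimmer, gave 0.28, so the size of the Mitf ratio depended on the probe. Pmel, a melanosome fibril protein, was higher by 1.11 (adjusted p = 0.00044) and Slc45a2, a melanosome transporter, by 0.97 (adjusted p = 0.00036). Lower in tumour were Rab38 at -0.76 (adjusted p = 0.00034), Sytl2 at -0.83 (adjusted p = 0.0012) and Myo5a at -0.47 (adjusted p = 0.0043). The histamine list was mostly dim, with 4 of 11 genes on the array measured. Hdc itself was at 0.38 (adjusted p = 0.037) and was above background in Cy3 on no array, and its call was lost without replicate 1 (0.27, adjusted p = 0.136) or 2 (0.33, adjusted p = 0.14).

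Hypoxia and glycolysis genes were higher in tumour. Cells short of oxygen stabilise HIF, which raises glucose transporters, glycolytic enzymes and pH regulators. Of 37 measured members, 25 passed in tumour and 3 in culture, with a median of 0.77, and 33 of the 37 were above background in Cy3 on all 3 arrays. Car9, a carbonic anhydrase at the cell surface, had log2 ratios of 3.07, 3.07 and 2.9 (mean 3.01 ± 0.06, SE, n = 3 pools; adjusted p = 0.00013). Angptl4, a secreted lipase inhibitor, had 3.24, 3.36 and 2.74 and was at least 8.59-fold higher. Adm, the vasodilator adrenomedullin, had 1.89, 1.67 and 2.72, highest in pool 3.
These 3 were the members past 4-fold. The monocarboxylate transporter Slc16a3 and the glycolytic enzymes Pkm and Pfkl had means from 1.23 to 1.39, and Slc2a1, the glucose transporter, had 1.02 (adjusted p = 0.0023). Lower in tumour were P4ha2, a collagen prolyl hydroxylase, at -1.68, -1.75 and -1.08, P4ha1 at -0.6 (adjusted p = 0.0059) and Ddit4, an inhibitor of mTORC1, at -0.77 (adjusted p = 0.0029). Pool 3 was the highest at 24 of the 37 members.

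Cell cycle genes were higher in tumour by about 2-fold with little spread. Of 41 measured members, 39 passed in tumour, 1, Ccne2 at -0.49, in culture, and none past 4-fold, with a median of 1.13. Rrm2, a ribonucleotide reductase subunit, had log2 ratios of 1.91, 1.85 and 1.87. Uhrf1, which carries DNA methylation through replication, had 1.81, 1.75 and 1.94, and Top2a, topoisomerase II, had 1.71, 1.61 and 1.51.
The list's medians in the pools were 1.13, 1.02 and 1.11. Replication genes (Mcm3 1.54, Lig1 1.53) and mitotic genes (Plk1 1.48, Cdc20 1.39, Birc5 1.23) had similar mean ratios. Ccnd1, cyclin D1, was higher by 0.88 (adjusted p = 0.00038) and Myc by 0.44 (adjusted p = 0.0011). These ratios lie under 4-fold, the range in which a dye effect cannot be told apart. Ribosome biogenesis genes had a median of 0.06, with 9 of 25 passing in tumour and 6 in culture. Oxidative phosphorylation genes had a median of 0.28, with 16 of 29 passing in tumour and 7 in culture. Sterol and fatty acid synthesis genes had a median of 0.56, with 23 of 30 in tumour and 1 in culture. Among immediate early genes, 13 of 21 passed in tumour and 3 in culture, led by Nr4a1 at 1.81, 1.7 and 1.86.

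**Figure D4:**
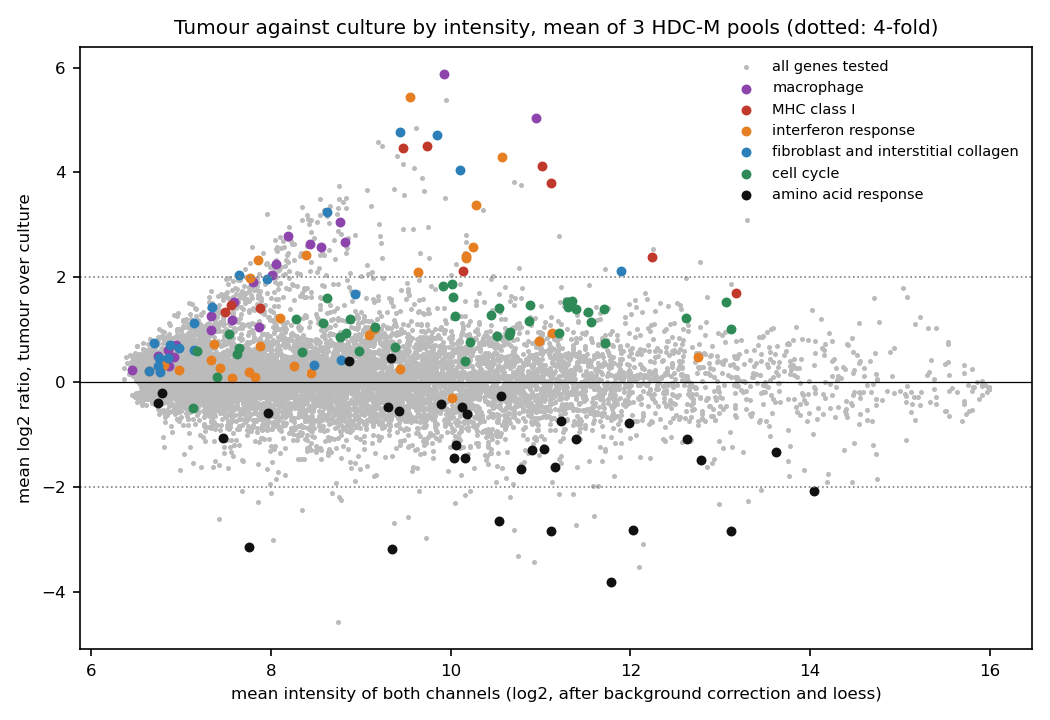
Mean log2 ratio of tumour over culture (vertical) against the mean log2 intensity of both channels (horizontal), 1 point per gene, with 6 lists coloured and dotted lines at 4-fold. Macrophage genes lie mostly at low intensity, where the Cy3 signal is near background. Cell cycle genes lie between 0 and 2 apart from Ccne2 at -0.49, many at middle to high intensity and some at low intensity, as Kif11 at 7.18. Amino acid response genes lie mostly below 0 up to high intensity, with Asns at -2.08, while Mars1 (0.41) and Slc7a5 (0.46) lie above 0.

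The genes lower in tumour, and so brighter in culture, were led by targets of the amino acid and oxidative stress responses. When amino acids run short or unfolded proteins build up in the endoplasmic reticulum, kinases phosphorylate eIF2alpha, which raises translation of ATF4. ATF4 and its partners then bind C/EBP-ATF response elements (CARE) and raise genes for amino acid transport, synthesis and charging of tRNAs. Of 33 measured members of the amino acid response list, 30 passed as brighter in culture, 8 past 4-fold, and 2 as brighter in tumour, with a median of -1.2. Trib3, a pseudokinase that is an ATF4 target, had log2 ratios of -3.8, -3.93 and -3.7 (mean -3.81 ± 0.06, SE, n = 3 pools; adjusted p = 0.000124). A second Trib3 probe gave -1.71.
Slc7a11, the cystine transporter, had -3.01, -3.29 and -3.13, with its tumour signal above background on 1 of 3 arrays. Cth, which makes cysteine, had -3.33 and -3.05 in the 2 pools with a usable spot. Chac1, a glutathione-degrading enzyme, had -2.92, -2.87 and -2.73. The pools hardly differed at any of these genes. Among the transcription regulators, Atf5 had -2.84, -2.84 and -2.83, Nupr1 had -2.74, -2.95 and -2.79, Ddit3 (CHOP) had -2.75, -2.68 and -2.5, and Atf4 itself had -1.39, -1.59 and -1.37. Asns, asparagine synthetase, had -2.05, -2.08 and -2.11. It was measured in tumour on all 3 arrays.
The serine pathway followed, with Phgdh at -1.33, Psph at -1.61 and Psat1 at -0.6. Among tRNA synthetases, Wars was at -1.65, Sars at -1.48, Nars at -1.45, Iars at -1.09 and Aars at -0.78, each with an adjusted p under 0.05, and second probes of Iars and Aars were both at -0.08. Mars1 (0.41, adjusted p = 0.002) and Slc7a5, a transporter of large neutral amino acids (0.46, adjusted p = 0.005), were the members brighter in tumour. Outside the list, Aldh1l2, of mitochondrial folate metabolism, had -2.99, -3.14 and -2.77, and Slc6a9, a glycine transporter, had -2.66, -2.86 and -2.64.

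The CARE letters TGATGNAA, searched on both strands in the 250 bases before the start, were found at 9 of the 27 amino acid response members with a promoter in the table (33.3%) and at 2.35% of the genes tested. Of the 7 members past 4-fold with a promoter, 4 held them, and these are shown with the matches in capitals, read as TTNCATCA where the match lies on the other strand. They are Slc7a11 (chr3:50443623-50443709, minus strand), Chac1 (chr2:119351019-119351086, plus strand), Nupr1 (chr7:126625543-126625610, minus strand) and Asns (chr6:7693210-7693262, minus strand), all from RefSeq (GRCm38.p6).
Slc7a11: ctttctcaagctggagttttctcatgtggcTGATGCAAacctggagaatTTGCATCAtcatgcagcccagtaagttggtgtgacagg
Chac1: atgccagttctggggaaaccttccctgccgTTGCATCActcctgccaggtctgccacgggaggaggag
Nupr1: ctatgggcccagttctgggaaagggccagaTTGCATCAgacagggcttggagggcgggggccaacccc
Asns: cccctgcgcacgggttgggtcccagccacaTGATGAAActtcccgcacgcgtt
Slc7a11 held 2 matches that face each other, and the others held 1 each.

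Genes of the antioxidant response were lower in tumour too. NRF2 is a transcription factor that is freed from KEAP1 by oxidants and electrophiles and raises glutathione, thioredoxin and NADPH genes through antioxidant response elements (ARE). The list of its targets was drawn up after the values had been seen, so its counts are a description only. Of 27 measured members, 22 passed as brighter in culture, 8 past 4-fold, and 4 as brighter in tumour, with a median of -1.33. Gsta3, a glutathione S-transferase, had log2 ratios of -4.51, -4.77 and -4.44 (mean -4.57 ± 0.08, SE, n = 3 pools; adjusted p = 0.00013), and a second probe gave -2.69. Srxn1, sulfiredoxin, had -3.57, -3.55 and -3.49. Blvrb, a biliverdin reductase, had -2.45, -2.61 and -2.66.
G6pdx, which makes NADPH, had -2.03, -2.22 and -2.13, and Gclm, the modifier subunit of glutathione synthesis, had -2.25 and -1.99 in the 2 pools with a usable spot. The textbook targets Nqo1 and Hmox1 had means of -1.95 and -1.8, and Txnrd1, thioredoxin reductase, had -1.47. Gsta1, Gsta2 and Gsta4 were brighter in tumour at 0.98, 0.94 and 0.98, though Gsta1 and Gsta2 are near-identical and their probes may read both. Tkt was the other member brighter in tumour, at 0.52. The ARE letters TGACNNNGC were found at 5 of 22 members with a promoter (22.7%) and at 13.8% of the genes tested. Of the 8 members past 4-fold with a promoter, 3 held them, and G6pdx (chrX:74428899-74428967, minus strand) and Gclm (chr3:122245393-122245461, plus strand) are shown, both with the match on the other strand, read as GCNNNGTCA.
G6pdx: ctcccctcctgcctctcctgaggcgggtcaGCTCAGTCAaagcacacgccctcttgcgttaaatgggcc
Gclm: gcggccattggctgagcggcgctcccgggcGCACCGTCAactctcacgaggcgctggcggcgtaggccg
This looser motif is common, and its share among the members lay nearer to that of all genes than the shares of CARE and ISRE did in their lists.

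Chaperone genes of the endoplasmic reticulum were lower in tumour. Of 19 measured members of the unfolded protein response list, 18 passed as brighter in culture, none in tumour, with a median of -1.11 and Canx at 0.11 not passing (adjusted p = 0.076). Herpud1, of the degradation of misfolded proteins, had log2 ratios of -2.52, -2.58 and -2.55 and was the member past 4-fold. Hspa5, the main chaperone BiP, had -1.81, -1.79 and -1.93, Creld2 had -1.72, -1.73 and -1.6, and Dnajb9 had -1.45, -1.64 and -1.44. Xbp1, a transcription factor of the response, was at -0.62 (adjusted p = 0.00052). These members were measured in culture on all 3 arrays at 18 of 19.
Of 17 measured heat shock genes, 12 passed in culture and 3 in tumour, with a median of -0.6 that was 0.18 under median centring. Hsph1, a large chaperone, had -1.87, -1.47 and -1.17, and the inducible Hspa1a had 1.7, 1.52 and 0.81, though its 3 probes ranged from -0.51 to 1.4. Of 20 measured p53 targets, 13 passed in culture and 6 in tumour, with a median of -0.44 that was 0.2 under median centring. Trp53inp1 had -1.86, -1.75 and -2.09, Ccng1 had -1.5, -1.32 and -1.39, and Cdkn1a, the p21 inhibitor, was at -0.56 (adjusted p = 0.00084).

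Several of the 20 lowest genes stood outside all lists. Gadd45a, a growth arrest and DNA damage gene, had log2 ratios of -3.39, -3.51 and -3.41, and Maoa, monoamine oxidase A, had -2.95, -3.16 and -3.17. Phyhd1, a dioxygenase, had -3.5, -3.33 and -3.1, and Akr1b7, an aldo-keto reductase, had -3.05, -3.23 and -2.76. Enah, a regulator of actin filaments, had -2.63, -2.93 and -2.5. Angptl6 had a mean of -2.82, and Adh7, an alcohol dehydrogenase, had a mean of -2.61 with its tumour signal above background on 1 of 3 arrays. All 3 pools lay below -2 at each of these genes.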

How the data were processed

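Total RNA of 3 HDC-M tumour pools was labelled with Cy5 and hybridised beside Cy3-labelled culture RNA, 1 ug of each, per the labels' protocols. The deposited intensity values (mean signal and median local background per spot and dye) were written by Agilent Feature Extraction 8.5.1.1, per the file headers. The authors' deposited value table is in log10 units and equals the software's log10 ratio at all 43790 spots; its median was -0.0096, 0 and -0.0017 on the 3 arrays, with direction and scale so settled.

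Signals were corrected by normexp (offset 50) and loess within arrays in limma 3.58.1 (R 4.3.3), with control spots and outliers at weight 0 and then left out. Of 41174 probes, 20894 were kept, on at least 2 usable pools and with the same channel above background in all of them (the software's mark, and a mean above the 99th percentile of that array's negative controls, because the mark stands on 95.22% to 99.68% of Cy3 negatives). Ratios of the 3 arrays were fitted with lmFit and eBayes against 0, two-sided, with Benjamini-Hochberg adjustment over all probes kept. The test treats pools as replicates, and 3 arrays limit its precision. The reference is 1 extract. The spike-in RNAs gave slopes of 0.865196 to 0.87289 of observed on expected log ratios (software's values), so ratios are somewhat compressed.

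RefSeq accessions named 22072 probes, another accession of the probe 142, and symbols or synonyms in descriptions 714 and 633, while 17613 had none. Each gene was read from its brightest probe (mean over both dyes). Named are the 20 highest and 20 lowest genes, list members (first those past 4-fold) and, where stated, genes picked after their values were seen. The members and the 32 lists were chosen with earlier results of these data known, and the Nrf2 list after the values were seen. The script was tested on simulated data. Alternatives covered background, normalization, filter, outliers, source of ratios, arrays in the fit, test and each pool left out.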

Additional observations from a re-analysis of the deposited data

Results flagged for a closer look

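The ratio over culture of 190 named genes was tested in the fit of all 9 arrays for a difference between HDC-M tumours and those of each other variant, and 10 genes differed at an adjusted p under 0.05 over all probes, with 13 differences in all. The same culture RNA was the reference in every variant. The share of all probes that differed between variants is not given here, so these counts have no background to be read against. Part of the 190 genes were named for high or low ratios in HDC-M itself.

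Cdkn1a, Ccng1 and Trp53inp1, of the p53 target list, were lower in HDC-M than in HDC-A tumours. That list held 20 measured members, and how many of them were among the 190 genes is not given, so no share can be read. Cdkn1a had a log2 ratio of -0.56 against 0.41, a difference of -0.98 (adjusted p = 0.0075). Ccng1 had -1.4 against -0.59, a difference of -0.81 (adjusted p = 0.0286), and Trp53inp1 had -1.9 against -0.9, a difference of -1 (adjusted p = 0.0337). In the amino acid response, Asns was 0.45 higher in HDC-M than in HDC-A (-2.08 against -2.53; adjusted p = 0.0287) and Slc7a5 was 0.68 higher (0.46 against -0.21; adjusted p = 0.0427). Trib3 was lower in HDC-M than in HDC-S (-3.81 against -3.16), a difference of -0.65 (adjusted p = 0.0476). The HDC-M ratio of Trib3 was among the lowest of all genes tested, so this difference draws on values that made the gene stand out.

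Enah was lower in HDC-M (-2.69) than in HDC-A (-1.74), by a difference of -0.94 (adjusted p = 0.0147), and than in HDC-S (-1.93), by -0.76 (adjusted p = 0.0388). Enah was named because its HDC-M ratio was among the 20 lowest, so both differences draw on values that picked it. Sytl2 stood at -0.83 in HDC-M and -1.7 in each other variant, 0.87 higher than in HDC-A (adjusted p = 0.0264) and than in HDC-S (adjusted p = 0.0374). Gsta4 was 0.71 higher in HDC-M than in HDC-A (0.98 against 0.27; adjusted p = 0.0307). Canx, at 0.11 in HDC-M, was between HDC-A at 0.38 (difference -0.26, adjusted p = 0.0485) and HDC-S at -0.22 (difference 0.33, adjusted p = 0.0388).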

How the results depend on the processing

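All 260 probes past 4-fold kept their direction in every alternative in which they were measured, and with the arrays' negative controls as background, an alternative added after seeing the data, all 260 stayed past 4-fold. Sizes and small differences depended more on the processing, and the cause was not tested. Median centring gave 7330 passing probes, 169 of them in culture, and 609 past 4-fold (592 tumour, 17 culture). Scaling between arrays gave 423 past 4-fold (327 and 96). The software's and the authors' ratios each gave 1094 (948 and 146), with Ctss at 8.3. Requiring both channels above background, which tests fewer probes, gave 167, 121 of them in tumour. Testing against 2-fold left 488 probes passing (316 and 172). Without replicate 1, 2 or 3 in turn, 8654 to 13795 probes passed (4906 to 7921 in tumour, 3704 to 5874 in culture), where a pair of pools has fewer degrees of freedom. Past 4-fold were 210 without replicate 1, 229 without replicate 2 and 336 without pool 3, which leaves scan day 1. Of the 260 probes, 207, 220 and 242 stayed past 4-fold in these fits, where 244, 257 and 247 of them were measured. Tested against 2-fold, 192 of the 260 stayed. The replicate numbers were not taken as pairs, since deviations of same-numbered HDC-M and other pools correlated at -0.213 to 0.15 across probes, while those of HDC-A and HDC-S correlated at 0.126, 0.585 and 0.152. Not every pair was thus above 0.1, and the fit of 9 arrays with the number as a block gave 14141 passing and 261 past 4-fold, with calls at S100a8, Krt6a, Pecam1, Canx and Tyr. S100a9 also missed the threshold under median centring (3.39, adjusted p = 0.0526), scaling (2.91, adjusted p = 0.0643), no filter (adjusted p = 0.0519) and the software's mark alone (adjusted p = 0.0512). Dim Cy3 signals limit the folds of tumour genes. Under median centring 20 of 190 named genes lost their call, and small ratios below 0 turned above it at Aars (0.03), Ccl5 (0.17), Cdkn1a (0.21), Ddit4 (0.03), Isg15 (0.46), Myo5a (0.34), Nos3 (0.05), P4ha1 (0.17), Psat1 (0.18), Rab38 (0.03), Tyrp1 (0.65) and Xbp1 (0.06). Ifit1, which passed nowhere, was at 0 with scaling, -0.12 with the software's and the authors' ratios and -0.19 to 0.26 with a pool left out. List medians moved by more than the SD of the pool medians at 26 of 33 lists under median centring and at 25 with the software's ratios.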
